A study of Mus musculus with 102 samples.

Results

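Ageing of the spleen was followed here in male mice labelled mTOR, in 3 old animals (21 or 23 months) set against 3 young animals (5 months). The 6 libraries belong to a table of 12 spleen libraries within a series of 102 samples. The other 6 are 3 old (21 or 23 months) and 3 young (5 months) male mice labelled WT, and all 12 titles carry BL6J. The labels give the mTOR genotype by its name and do not describe the allele, so what it does to the kinase is not known from them. Of the old mTOR mice, replicate 2 is 21 months old and replicates 1 and 3 are 23 months old. A gene was a member if its value was 10 or more in at least 3 of the 12 libraries, which kept 15512 of 51810 genes. As a further set of animals, spleens of separately labelled male C57BL/6J mice from the ageing table of the series were used, 7 at 20 months and 9 at 5 months. That table was normalized on its own, so only differences within it are set beside those of the mTOR table.

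All expression values are normalised read counts, that is, reads per gene divided by 1 size factor per library. Each mTOR library held between 7733716 and 10347823 reads in genes. Log2 differences are old minus young on log2(value + 1), which understates changes of low genes, and each carries its standard error (SE). A gene is called when limma's adjusted p is under 0.05. Nothing in the labels says how the animals were bred or processed together, and p-values measure the spread between these libraries.

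The mTOR kinase works in a pair of complexes that couple nutrients and growth signals to protein synthesis, ribosome production and autophagy. In the spleen it supports the growth of activated lymphocytes and the secretory load of plasma cells. The white pulp holds the B-cell follicles and T-cell zones, and the red pulp filters blood through macrophages that recycle iron. With age the mouse spleen is known to lose naive T cells and follicular structure and to gain plasma cells and myeloid cells.

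Mtor itself had 230, 256 and 276 normalised counts in old mTOR spleens, against 218, 242 and 286 in young mTOR spleens. The groups overlapped, with a log2 difference of 0.03 (SE 0.13). In WT spleens Mtor had 346, 342 and 330 in old animals and 326, 339 and 368 in young animals, and every mTOR library was below every WT library. Markers of B cells (Cd79a, Cr2), T cells (Cd3e, Cd4, Cd8a), red pulp macrophages (Spic, Adgre1, Vcam1) and the spleen's own stroma (Nkx2-3, Tlx1, Wt1) were found in all 12 libraries. The B-cell gene Ms4a1 and the erythroid gene Alas2 are listed at 0 in every library and were not tested.

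Some libraries stood apart before any comparison was made. Transcripts of the exocrine pancreas, which touches the spleen in the body, were high in a pair of young mTOR libraries. The summed value of a list of its secreted enzymes was 176, 103 and 96.3 in old mTOR spleens, against 16240, 86.2 and 28160 in young mTOR spleens. Young replicates 1 and 3 were high and young replicate 2 was not, and main results are also given without replicates 1 and 3. A pair of young WT libraries carried less of it, with sums of 173, 110 and 189 in old WT spleens, against 146, 5229 and 2064 in young WT spleens. Red-cell precursors varied more between animals than between ages. The erythroid sum was 84495, 32873 and 5963 in old mTOR spleens, against 18888, 10412 and 46342 in young mTOR spleens, and the cell-cycle sum followed with 29318, 16811 and 5847 against 8269, 6131 and 15523. Old replicate 1 was the highest and old replicate 3 the lowest on both lists, so the old group enclosed the young one.

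**Figure D1:**
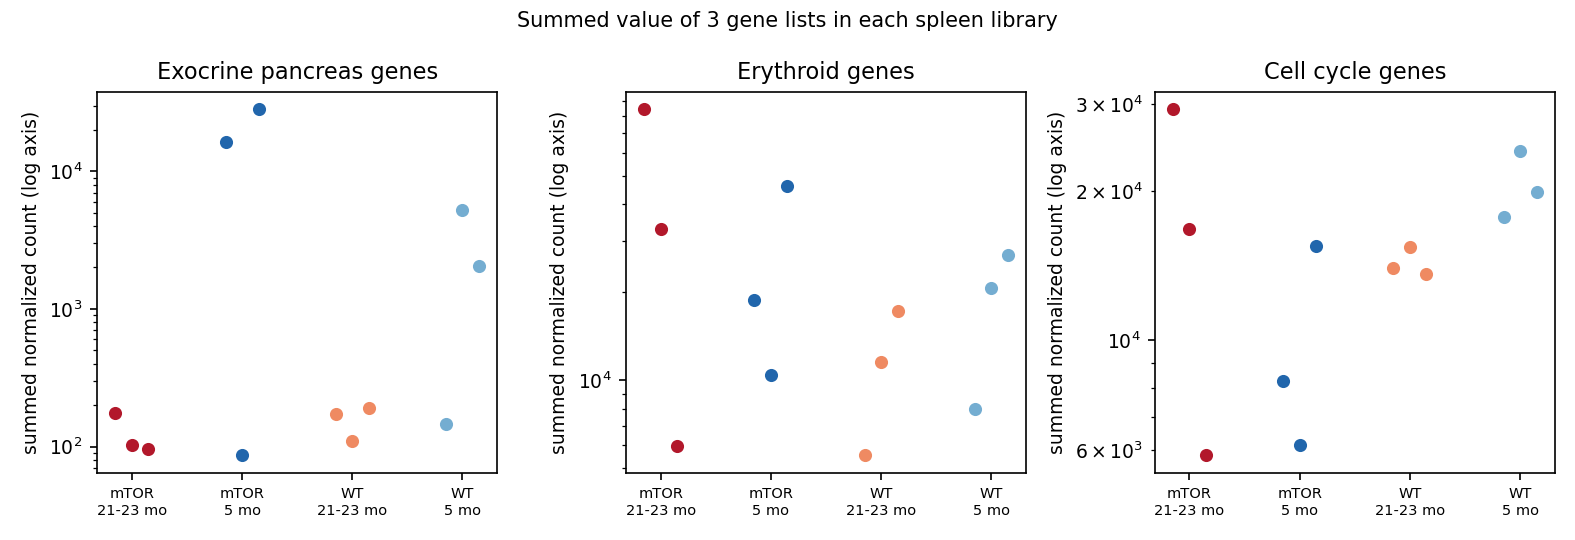
Summed normalised counts of the exocrine pancreas, erythroid and cell-cycle lists in each spleen library, on a log axis, with groups from old mTOR to young WT. Pancreatic sums of 16240 and 28160 set young mTOR replicates 1 and 3 apart, and the erythroid sums of old mTOR spleens run from 5963 to 84495.

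Between old and young mTOR spleens, limma called 1 gene of 15512, or 0.00645%, and it was Dph5, lower in the old animals. The median log2 difference over all genes was 0.00138 and 50.3% of genes lay above 0, both of which the scaling of each library by a size factor largely sets. edgeR's quasi-likelihood test called 0 genes, with 1547 (9.97%) at an unadjusted p under 0.05. At the same unadjusted level limma had 1450 genes (9.35%), of which 942 were higher (6.07%) and 508 lower (3.27%) in old mTOR spleens. DESeq2's Wald test called 120 genes (0.774%), 83 of them higher (0.535%) and 37 lower (0.239%). Groups did not overlap for 1348 genes higher in old mTOR spleens (8.69%) and 1351 lower (8.71%). The same fit called 0 genes between old and young WT spleens, where 1748 (11.3%) had an unadjusted p under 0.05. edgeR called 0 there as well and DESeq2 called 99 (0.638%). Groups did not overlap for 1096 genes higher (7.07%) and 1084 lower (6.99%) in old WT spleens.

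Dph5, which fell in old mTOR spleens, encodes the methyltransferase of the diphthamide pathway, which modifies a histidine of elongation factor 2 for accurate translation. The gene lies on the plus strand of chromosome 3, from 115887837 to 115934361 (GRCm38, GENCODE M21). It had 462, 428 and 420 normalised counts in old mTOR spleens, against 1086, 831 and 856 in young mTOR spleens. The lowest young value was well above the highest old one, and the means were 437 ± 22.3 in old and 924 ± 141 in young animals (SD, n = 3 each). The log2 difference was -1.07 (SE 0.14, limma adjusted p = 0.0498). In WT spleens the values overlapped, at 662, 669 and 577 in old animals and 683, 633 and 841 in young animals. Their log2 difference was -0.17, and the difference between the mTOR and WT effects, -0.90, had an unadjusted p of 0.000498 and an adjusted p of 0.787. In the ageing table Dph5 had a lowest, median and highest value of 313, 419 and 592 at 20 months and of 684, 973 and 1417 at 5 months. Those groups did not overlap either, and the log2 difference was -1.17 (limma adjusted p = 0.000269).

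The call for Dph5 sat at the threshold. Over 19 settings of the analysis its log2 difference stayed between -1.16 and -0.93, and it passed in 8 and missed in 11. The adjusted p was 0.0564 with edgeR and 9.01e-08 with DESeq2. It was 0.746 without both pancreas-bearing young libraries, where the group has 1 library left. Leaving out 1 library gave limma adjusted p-values of 0.0962 without old replicate 1, 0.0328 without old replicate 2 and 0.258 without old replicate 3. Leaving out young replicates 1, 2 and 3 in turn gave 0.272, 0.0151 and 0.215.

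The region around the start of Dph5 is shown because it is the gene that passed, together with those of Pacsin1 and Hapln1, the genes with the next smallest p among those lower and the smallest among those higher. Each sequence runs from 250 bases before to 50 bases after the RefSeq start (GRCm38.p6, plus strand), and capitals mark CCGGAAG, the core bound by ETS factors. The windows are chr3:115887933-115888232 for Dph5, chr17:27684989-27685288 for Pacsin1 and chr13:89540386-89540685 for Hapln1. In GENCODE M21 these genes begin further upstream, at 115887837, 27655509 and 89539796. Each window therefore lies inside the gene as GENCODE gives it, and only the RefSeq start was used.
Dph5: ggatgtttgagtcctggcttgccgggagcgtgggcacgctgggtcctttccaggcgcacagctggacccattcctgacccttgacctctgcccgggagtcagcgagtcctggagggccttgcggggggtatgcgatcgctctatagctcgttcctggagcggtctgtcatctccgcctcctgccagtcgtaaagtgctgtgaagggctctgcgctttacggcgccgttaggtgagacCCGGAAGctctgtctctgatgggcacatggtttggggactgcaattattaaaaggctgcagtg
Pacsin1: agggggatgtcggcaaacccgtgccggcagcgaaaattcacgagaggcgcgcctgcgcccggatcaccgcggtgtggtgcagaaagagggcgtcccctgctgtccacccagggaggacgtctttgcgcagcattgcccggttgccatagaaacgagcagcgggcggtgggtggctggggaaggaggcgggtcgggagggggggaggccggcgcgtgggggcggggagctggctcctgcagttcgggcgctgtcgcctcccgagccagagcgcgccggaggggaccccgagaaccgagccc
Hapln1: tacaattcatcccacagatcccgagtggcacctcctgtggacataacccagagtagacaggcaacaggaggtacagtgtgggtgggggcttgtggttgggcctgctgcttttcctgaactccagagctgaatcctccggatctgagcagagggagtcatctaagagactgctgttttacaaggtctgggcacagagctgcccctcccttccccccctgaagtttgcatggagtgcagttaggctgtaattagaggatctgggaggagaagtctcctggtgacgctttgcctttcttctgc
Letters C and G made up 60.3% of the Dph5 window, 71.7% of the Pacsin1 window and 54.3% of the Hapln1 window, beside a median of 52.7% over 32851 promoters. The Dph5 and Pacsin1 windows held 18 and 33 CpG pairs, while the Hapln1 window held 3, beside a median of 7. The motifs searched on both strands were CCGGAAG, the E-box CACGTG and CCAAT, which 8.86%, 7.15% and 37.4% of all promoters hold. Dph5 had CCGGAAG once, 13 bases before the start, and the other motifs were not in these 3 windows.

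Genes with the smallest p in each direction are described next. They were chosen after their values were seen, because 1 called gene leaves little to describe, and apart from Dph5 none passed limma's test. The 12 higher genes had adjusted p-values between 0.159 and 0.280 and the 12 lower genes up to 0.307. In all 24 the old and young mTOR groups did not overlap, which the choice by small p favours.

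Among the higher genes, 3 stood out by size. Hapln1, a link protein that fastens hyaluronan to proteoglycans in the matrix, had 55.0, 19.5 and 120 in old mTOR spleens, against 1.77, 0 and 2.12 in young mTOR spleens. Its log2 difference was 4.66 (SE 0.72, limma adjusted p = 0.159), and it was 2.35 in WT. C7, a component of the terminal complement complex, had 130, 79.0 and 247 in old mTOR spleens, against 39.0, 31.5 and 22.2 in young mTOR spleens. Both genes were lowest among the old animals in the 21-month library. The C7 difference was 2.14 in mTOR and 1.08 in WT spleens, and in the ageing table C7 was called higher at 20 months (log2 1.47). Spag6, a protein of the cilium axoneme, had 89.7, 50.7 and 185 in old mTOR spleens, against 18.6, 8.34 and 20.1 in young mTOR spleens (log2 2.60, SE 0.48). Here too the 21-month animal was the lowest of the old group and still above every young one.

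Other higher genes had smaller differences. Kdr, the VEGF receptor of endothelium, had 982, 768 and 875 in old mTOR spleens, against 540, 526 and 591 in young mTOR spleens (log2 0.66, SE 0.14). Cgnl1, a junction protein of endothelium and epithelium, had 775, 641 and 836 in old mTOR spleens, against 401, 449 and 347 in young mTOR spleens (log2 0.91, SE 0.15). Tns3, a focal adhesion protein, was at 2382, 1866 and 2466 in old and 1434, 1373 and 1465 in young mTOR spleens. All 3 were called higher at 20 months in the ageing table. Wipi1, which binds phosphoinositides on forming autophagosomes, had 651, 394 and 572 in old mTOR spleens, against 280, 293 and 288 in young mTOR spleens. Young animals varied by little for this gene while the old ones spread, and the log2 difference was 0.88 in mTOR, 0.08 in WT and 1.39 in the ageing table. Sntg1, a syntrophin scaffold, had 1251, 987 and 1004 in old mTOR spleens, against 451, 408 and 633 in young mTOR spleens (log2 1.14, SE 0.24). Penk, the enkephalin precursor, differed by 1.16 in mTOR and 0.81 in WT spleens, but by -0.02 in the ageing table. Enpp2 (autotaxin, made by high endothelial and stromal cells) and Cyp2s1 (a cytochrome P450) had log2 differences of 0.62 and 1.52.

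Among the lower genes, Pacsin1, an endocytic adaptor also made in plasmacytoid dendritic cells, had 238, 294 and 263 in old mTOR spleens, against 480, 438 and 442 in young mTOR spleens. The groups were well apart (log2 -0.78, SE 0.13, limma adjusted p = 0.179), the WT difference was -0.66, and in the ageing table it was -1.46 (limma adjusted p = 0.00134). Rras2, a RAS-family GTPase of lymphocytes, had 843, 1075 and 887 in old mTOR spleens, against 1407, 1489 and 1352 in young mTOR spleens (log2 -0.61, SE 0.12). Siglecg, an inhibitory sialic acid receptor of B cells, had 902, 1272 and 999 in old and 1540, 1596 and 1666 in young mTOR spleens. For both genes the 21-month animal was nearest to the young ones. Klra8, the Ly49H receptor of natural killer cells, had 51.4, 24.4 and 17.7 in old mTOR spleens, against 81.6, 110 and 94.3 in young mTOR spleens. Its log2 difference was -1.71 in mTOR and -0.01 in WT spleens, and reads of the near-identical Klra receptors may be divided between copies. Camk4, a calcium-dependent kinase of T cells, and Rab3ip, a Rab8 activator, differed by -0.64 and -0.56 in mTOR spleens and by -0.62 and -0.65 in WT spleens. Edaradd, Cdk5r1, Nfkbid and Atp1b1 differed by -1.20, -0.81, -0.72 and -0.70. Cela2a, a pancreatic elastase, was at 0 in every old mTOR library and at 170, 1.85 and 166 in the young ones, high in the same pair of libraries as the other pancreatic genes.

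These genes were then looked up in both other comparisons. Of the 12 higher genes, 11 had the same sign in WT spleens, 6 of them at an unadjusted p under 0.05, where 5.69% of all genes were higher. In the ageing table, 11 were tested, 10 had the same sign and 7 were called higher at 20 months, where 8.34% of all genes were. Of the 12 lower genes, 12 had the same sign in WT spleens and 6 were at an unadjusted p under 0.05, where 5.58% of all genes were lower. In the ageing table, 11 were tested, all 11 had the same sign and 9 were called lower, where 6.99% of all genes were. The WT mice of the mTOR table and the ageing mice share no control samples with the mTOR mice. The same table and the same size-factor step link mTOR and WT, however, and the fit gives each gene 1 variance for all 4 groups. Choosing genes by small p in mTOR therefore also favours small p in WT, so the WT counts at that level are not independent. The 12 lower genes include the pancreatic gene Cela2a.

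**Figure D2:**
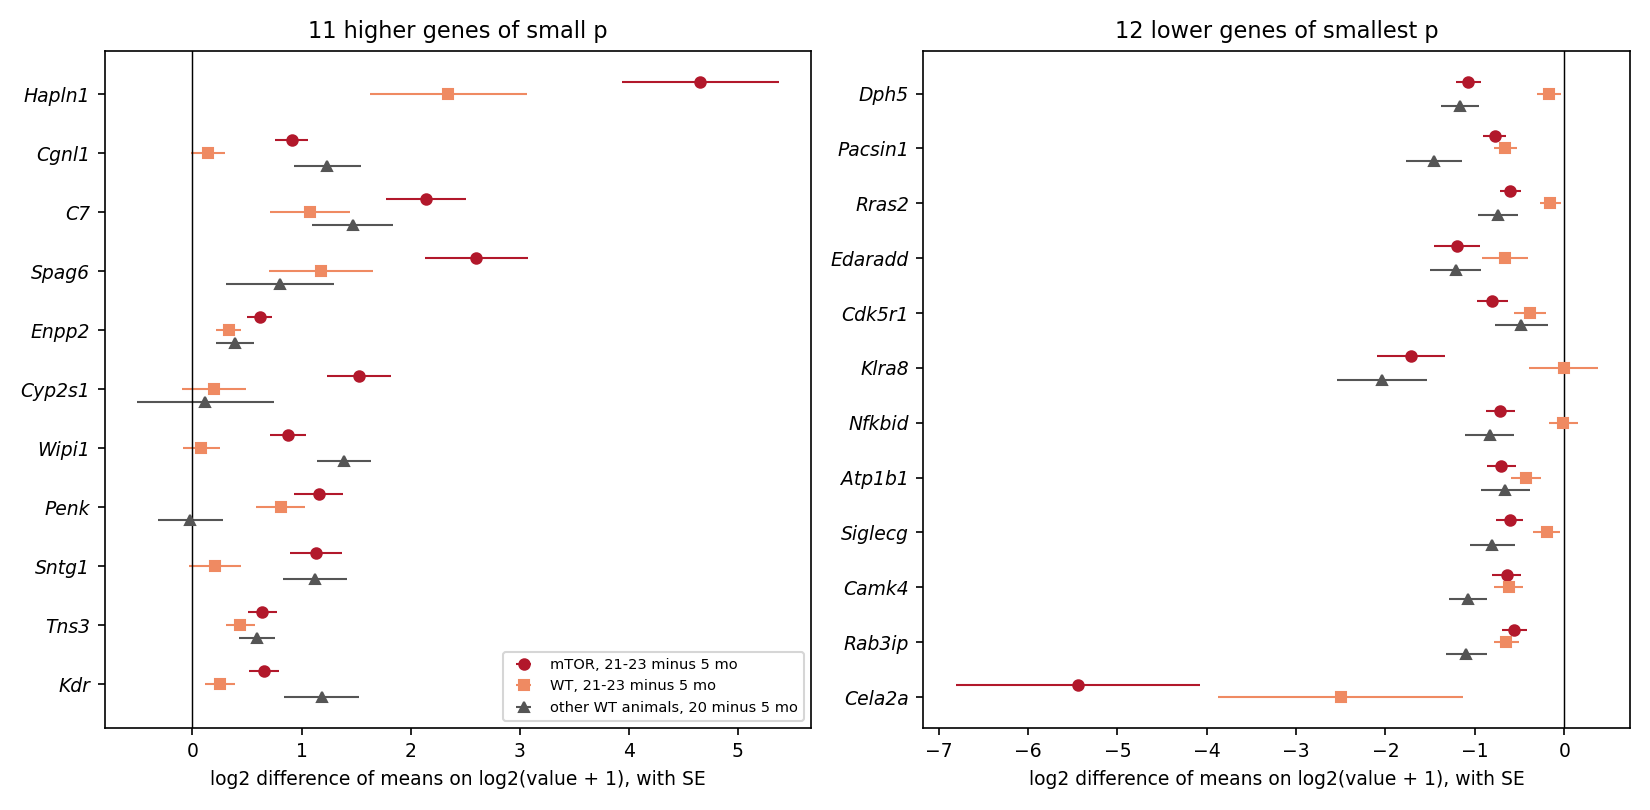
Log2 difference, old minus young, with its SE for 11 of the higher and the 12 lower genes of smallest p in mTOR spleens, in WT spleens and in the ageing table (20 minus 5 months). Pacsin1 lies at -0.78, -0.66 and -1.46 in the 3 comparisons, while Wipi1 lies at 0.88, 0.08 and 1.39.

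**Figure D3:**
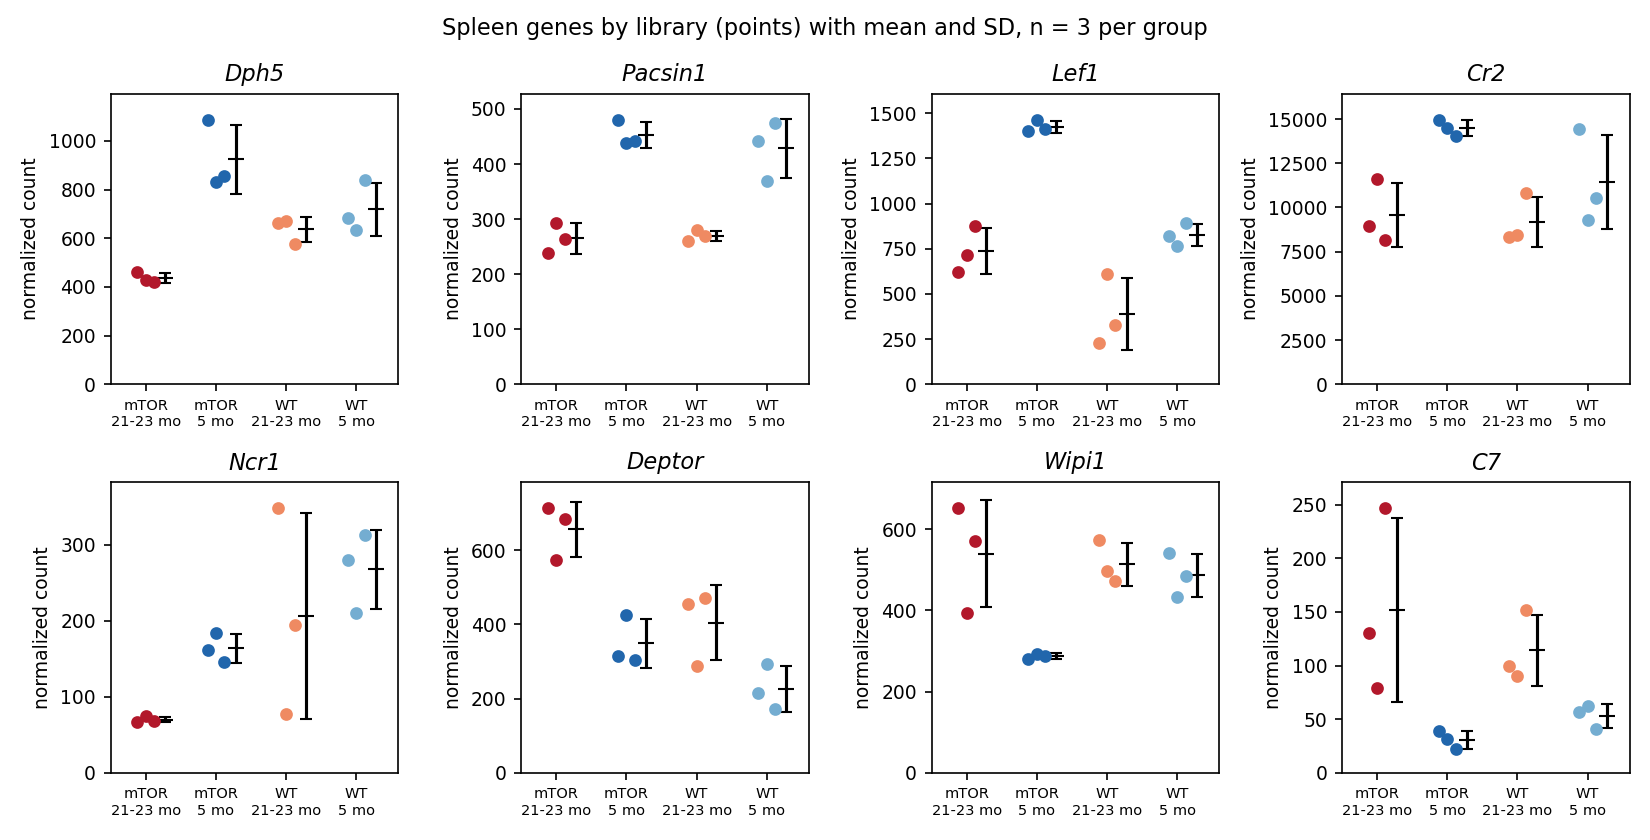
Normalised counts of 8 genes in each library of the 4 groups, with the mean and SD of 3 libraries, on linear axes from 0. The 3 old mTOR points of Dph5, Pacsin1, Lef1, Cr2 and Ncr1 lie below the 3 young mTOR points, and those of Deptor, Wipi1 and C7 lie above them.

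No member of the 49 gene lists passed limma's test, so the lists are given by counts and medians. B-cell genes were lower in old mTOR spleens throughout their list. All 15 tested members had a log2 difference below 0, with a median of -0.40 beside 0.00138 over all genes, and 8 of the 15 did not overlap, where 8.71% of all genes were lower without overlap. Cr2, the complement receptor of mature B cells and follicular dendritic cells, had 8938, 11610 and 8173 in old mTOR spleens, against 14952, 14506 and 14035 in young mTOR spleens. The log2 difference was -0.61 (SE 0.18, limma adjusted p = 0.375), beside -0.30 in WT and -1.29 in the ageing table. Spib, a transcription factor of B cells, had 1553, 1816 and 2071 in old and 2324, 2474 and 2391 in young mTOR spleens. Neither gene overlapped between old and young mTOR spleens, and the 21-month animal was the highest old one for Cr2. In bulk tissue, fewer cells of a type and less RNA per cell cannot be told apart. Of 12 genes of marginal zone and follicular B cells 11 were below 0 (median -0.31). The WT medians of these lists were -0.26 and -0.27, and in the ageing table, 13 of 15 and 9 of 12 members were called lower at 20 months. Without both pancreas-bearing young libraries the B-cell median was -0.27.

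T-cell genes were mostly lower in old mTOR spleens too. Of 18 T-cell genes 17 were below 0 and 9 did not overlap (median -0.42), and of 11 naive T-cell genes 8 were below 0 and 6 did not overlap (median -0.49), where 8.71% of all genes were lower without overlap. Lef1, which binds DNA downstream of Wnt signals and marks naive T cells, had 623, 715 and 875 in old mTOR spleens, against 1399, 1463 and 1414 in young mTOR spleens. Its old values were all far below the young ones, with a log2 difference of -0.96 (SE 0.26, limma adjusted p = 0.325, DESeq2 adjusted p = 0.0429). WT spleens differed by -1.21 for Lef1 (unadjusted p = 0.000452) and the ageing table by -2.32. Its relative Tcf7 had 40.7, 53.7 and 70.7 in old and 108, 107 and 101 in young mTOR spleens. Ccr7, which guides naive T cells to the T zone, had 260, 369 and 322 in old mTOR spleens, against 421, 477 and 442 in young mTOR spleens. S1pr1, the receptor for leaving lymphoid tissue, had 2509, 2217 and 2335 in old mTOR spleens, against 4195, 3329 and 2990 in young mTOR spleens. None of these 3 overlapped. Cd4 did not overlap either, with 964, 969 and 1116 in old and 1452, 1316 and 1324 in young mTOR spleens, whereas Cd8a did, with 501, 433 and 553 in old and 476, 515 and 486 in young mTOR spleens. Lists of effector or exhausted T cells (17 genes) and of regulatory and follicular helper T cells (9 genes) had medians of 0.11 and -0.07, which without young replicate 3 were -0.01 and -0.21, with 1 gene in each direction at an unadjusted p under 0.05 in each. In the ageing table, 17 of 18 T-cell genes and 9 of 11 naive T-cell genes were called lower.

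Natural killer genes were lower as well, by a median of -0.52 over 15 genes, with 12 below 0, 6 lower and 1 higher without overlap, where 8.71% and 8.69% of all genes were. Ncr1, the activating receptor NKp46, had 67.0, 74.2 and 68.8 in old mTOR spleens, against 161, 184 and 146 in young mTOR spleens. The 3 old values were nearly equal and under the lowest young one, and the log2 difference was -1.21 (SE 0.38). Klra4, another Ly49 receptor, had 38.3, 13.7 and 21.6 in old and 55.9, 85.3 and 54.0 in young mTOR spleens. In WT spleens the list median was -0.17, with Ncr1 at -0.60, and in the ageing table it was -1.14 with 8 of 15 called lower. The mTOR median of this list was -0.26 without young replicate 2.

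Plasma-cell and immunoglobulin genes went the other way in mTOR spleens. Of 12 plasma-cell genes 10 were above 0, 7 were higher without overlap and 9 had an unadjusted p under 0.05, beside 8.69% and 6.07% of all genes. The median was 0.73, and 0.33 in WT. Jchain, which joins antibody polymers, had 16586, 13481 and 18116 in old mTOR spleens, against 12374, 7968 and 9694 in young mTOR spleens. Xbp1, the transcription factor of the secretory programme, had 997, 963 and 2046 in old and 817, 643 and 762 in young mTOR spleens. Sdc1, the surface marker of plasma cells, had 255, 235 and 704 in old mTOR spleens, against 181, 125 and 133 in young mTOR spleens. None of these overlapped, and old replicate 3 was the highest for all 3. Derl3, a membrane protein of degradation from the endoplasmic reticulum, had 123, 136 and 304 in old and 106, 45.4 and 63.6 in young mTOR spleens (log2 1.34). In WT spleens Eaf2, a plasma-cell elongation factor, differed by -0.39, beside 1.01 in mTOR spleens, and the difference between the effects had an unadjusted p of 0.00204.

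Of 9 constant-region genes 7 were above 0, with a median of 0.90 in mTOR and -0.12 in WT spleens. Without old replicate 3 the mTOR median was 0.57, and the summed value of the list was 77661, 83633 and 214598 in old mTOR spleens, against 71765, 44850 and 49703 in young mTOR spleens. Ighg2b, the heavy chain of an IgG class, had 3772, 2056 and 2991 in old mTOR spleens, against 962, 668 and 510 in young mTOR spleens. The lowest old value was well above the highest young one, and the log2 difference was 2.05 (SE 0.47, limma adjusted p = 0.301, DESeq2 adjusted p = 0.0348). In WT spleens it was -0.11, and the 2.15 between the effects had an unadjusted p of 0.00655. Ighm, the heavy chain of IgM, had 54227, 68769 and 121491 in old mTOR spleens, against 39022, 33438 and 33801 in young mTOR spleens. Constant regions of the IgG classes are alike in sequence, so reads may be divided between them. Single variable segments held much of the antibody transcripts of old replicate 3. Ighv2-3 had 607, 63.4 and 21510 in old and 55.9, 40.8 and 43.4 in young mTOR spleens, and made up 66.2% of all heavy-chain variable values of that library, while Igkv5-39 made up 80.2% of its kappa variable values. Igkv5-39 was the leading kappa segment in other libraries too, with 50.4% in old WT replicate 3 and 43.7% in young WT replicate 3. Of 174 variable segments tested, 21 were higher and 7 lower without overlap in mTOR spleens, beside 8.69% and 8.71% of all genes, and 5 were higher and 16 lower in WT spleens.

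Macrophage genes were mostly higher. Of 17 monocyte and macrophage genes 13 were above 0 (median 0.34) and 7 were higher without overlap, and of 16 red pulp macrophage and iron genes 13 were above 0 (median 0.33) with 5 higher without overlap, where 8.69% of all genes were. The red pulp median was 0.15 without old replicate 1. The mean log2 value of that list was 10.9, 10.4 and 10.2 in old mTOR spleens, against 10.2, 10.1 and 10.3 in young mTOR spleens, so that old replicate 3 lay among the young. Cd163, the haptoglobin-haemoglobin scavenger receptor, had 3319, 2288 and 2782 in old mTOR spleens, against 1431, 1599 and 1435 in young mTOR spleens. Mrc1, the mannose receptor, had 2791, 1730 and 1821 in old mTOR spleens, against 1367, 1359 and 1488 in young mTOR spleens. C1qb, a chain of the first complement component, had 1696, 1167 and 1399 in old and 988, 878 and 1020 in young mTOR spleens. Each of the 3 was highest in old replicate 1, and none overlapped. Spic, the transcription factor that red pulp macrophages need, did overlap, with 1975, 1249 and 1008 in old and 1092, 1028 and 1067 in young mTOR spleens. WT medians were 0.13 and -0.04, and in the ageing table they were 1.03 and 0.97 with 7 of 17 and 5 of 16 called higher.

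Stroma, matrix, complement and mesothelial lists had medians above 0, which the 21-month animal did not share for stroma, matrix and mesothelium. The medians were 0.41 for 14 genes of stroma and endothelium, 0.41 for 19 matrix genes, 0.37 for 16 complement genes and 0.78 for 7 mesothelial genes, with 12, 16, 13 and 6 genes above 0. The WT medians were -0.09, 0.14, 0.20 and 0.07. In mean log2 value the 21-month animal lay below every young mTOR library for stroma, at 7.99 beside 8.03 to 8.15, for matrix, at 8.407 beside 8.411 to 8.602, and for mesothelium, at 5.39 beside 5.50 to 6.01. The stroma median was 0.25 without old replicate 1 and 0.64 without old replicate 2, and without old replicate 3 the matrix and mesothelial medians were 0.27 and 0.51. Wt1, a transcription factor of the capsule and of splenic stroma, had 1370, 1024 and 1094 in old mTOR spleens, against 699, 678 and 576 in young mTOR spleens (log2 0.83, beside 0.07 in WT). Tlx1, which the spleen needs to form, had 115, 91.7 and 142 in old and 79.9, 75.1 and 55.1 in young mTOR spleens. Madcam1, the adhesion molecule of marginal sinus cells, was an exception with 70.6, 27.3 and 66.8 in old mTOR spleens, against 94.9, 125 and 119 in young mTOR spleens (log2 -1.13). C4b had 1999, 1234 and 2334 in old mTOR spleens, against 1036, 969 and 934 in young mTOR spleens, and shares nearly all its sequence with C4a. The log2 difference of C4b was 0.87 (DESeq2 adjusted p = 0.0155), beside 0.50 in WT and 1.01 in the ageing table.

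The count of called genes depended on the 21-month library. Without it limma called 42 genes, 35 higher and 7 lower, although the remaining old group had only the 23-month animals. The 35 included the stroma and matrix genes Lama4, Aebp1, Sparcl1 and Lepr beside C7, Hapln1, Wipi1 and C4b. Lama4, a laminin of vessel walls, had 187, 101 and 260 in old mTOR spleens, against 85.2, 88.1 and 81.6 in young mTOR spleens. Sparcl1 had 3039, 1412 and 2406 in old and 1209, 1477 and 1185 in young mTOR spleens, and Lepr, the leptin receptor of perivascular stroma, had 1201, 638 and 1230 in old and 612, 770 and 550 in young mTOR spleens. For Sparcl1 and Lepr the 21-month animal lay inside the young range. The 35 genes passed only without that library, which favours genes that are low in it, so these low values are no separate finding. With all libraries in, 24 of the 35 did not overlap, beside 8.69% of all genes, which the choice by small p also favours. With the ageing mice 34 were tested and 21 were called higher at 20 months, beside 8.34% of all genes. One animal at 21 months cannot tell its age from its own variation.

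The 120 genes of DESeq2 overlap with these groups. Of its 83 higher genes 78 did not overlap, beside 8.69% of all genes, which the choice by small p in the same libraries favours. In WT spleens 67 were above 0. With the ageing mice 82 were tested and 41 were called higher at 20 months, beside 8.34% of all genes. Its 37 lower genes were of another kind, since 11 are in the list of pancreatic enzymes. Of the 37, 23 did not overlap, beside 8.71% of all genes. In the ageing table, where not all 37 were tested, 11 were called lower, beside 6.99% of all genes. Without both pancreas-bearing young libraries DESeq2 called 3 genes, all higher and all among the 120. The young mTOR group then holds 1 library, which is assumed to vary like the other groups. The pancreatic list had a median of -5.76 with all libraries, set by those 2.

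**Figure D4:**
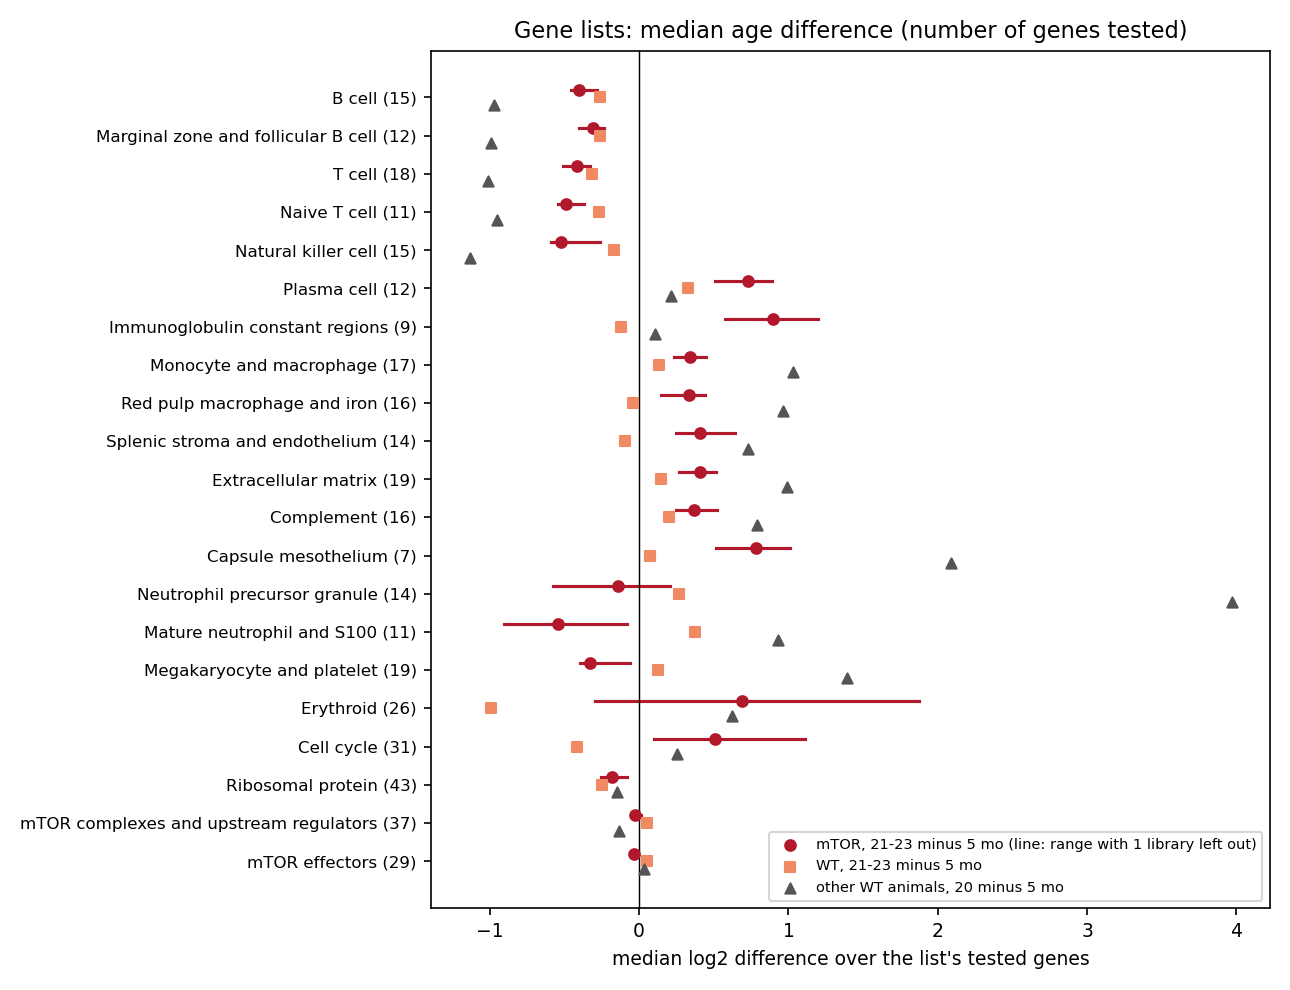
Median log2 difference, old minus young, of 21 gene lists in mTOR spleens (bars show the range when each library is left out in turn), in WT spleens and in the ageing table (20 minus 5 months). B-cell, T-cell and natural killer lists lie at -0.40, -0.42 and -0.52 in mTOR spleens, and plasma-cell genes at 0.73.

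**Figure D5:**
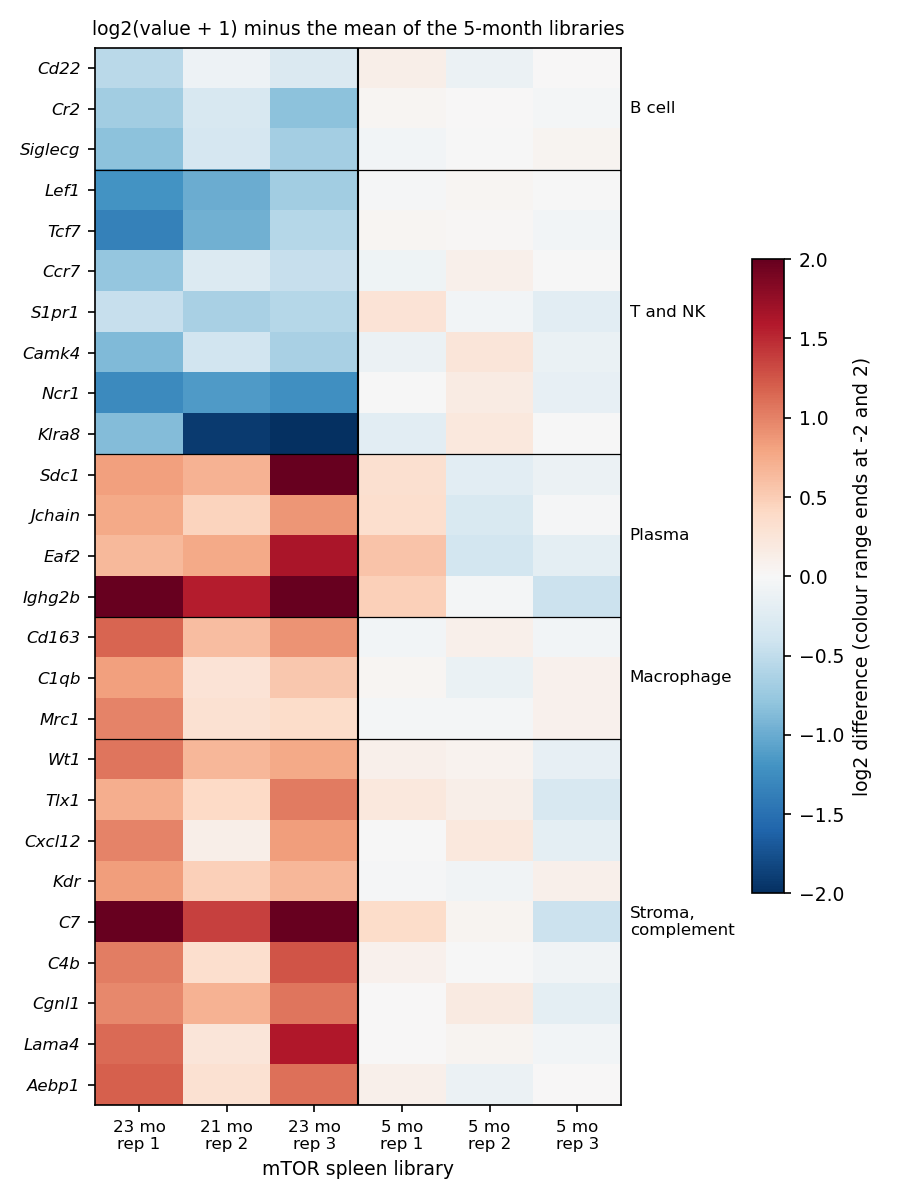
Log2(value + 1) of 26 genes in the 6 mTOR libraries, old on the left and young on the right, as the difference from each gene's mean over the young libraries, coloured from -2 to 2. Apart from Cd22, the B, T and natural killer genes are lower in every old library than in any young one. Sdc1, Jchain and Eaf2 are highest in old replicate 3, and the stromal and complement genes are lowest among old libraries in replicate 2.

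Genes of neutrophils and megakaryocytes had medians below 0 in mTOR spleens, and above 0 in the ageing table. Of 14 genes of neutrophil precursor granules 11 were below 0 in mTOR spleens (median -0.14), though the median ran from -0.58 without old replicate 1 to 0.21 without old replicate 3. By contrast 13 of 14 were called higher at 20 months in the ageing table (median 3.97). Mpo, the peroxidase of those granules, had 32.3, 10.7 and 5.89 in old mTOR spleens, against 6.21, 6.49 and 10.6 in young mTOR spleens, overlapping. In the ageing table the lowest, median and highest values of Mpo were 19.3, 180 and 311 at 20 months, and 0, 2.61 and 71.2 at 5 months. The 11 genes of mature neutrophils and S100 proteins were all below 0 (median -0.54, but -0.08 without old replicate 3 and -0.90 without old replicate 2), S100a8, an alarmin of neutrophils, with 49.1, 34.2 and 14.7 in old and 55.0, 52.8 and 68.9 in young mTOR spleens. Old replicate 3 was the lowest, and the WT median of this list was 0.37. Megakaryocyte genes had a median of -0.33 over 19 genes, which was -0.06 without old replicate 3, beside 0.13 in WT and 1.39 in the ageing table. Whether these effects differ between the tables was not tested.

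The erythroid and cell-cycle lists depended on single animals. The erythroid median of 26 genes was 0.69, but it was -0.30 without old replicate 1 and 1.88 without old replicate 3, and 0 of the 26 were at an unadjusted p under 0.05. All 31 cell-cycle genes were above 0 with a median of 0.51, which was 0.10 without old replicate 1 and 1.11 without old replicate 3, and 1 had an unadjusted p under 0.05. In WT spleens both lists lay below 0, at -0.99 and -0.41. The erythroid sums of single animals above show how far such lists vary within an age.

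Genes of the mTOR pathway had no common direction. Of 37 genes of the complexes and their upstream regulators 12 were above 0 and 25 below (median -0.03), and of 29 effectors 12 were above and 17 below (median -0.04). Deptor, which binds and restrains the kinase, was the member with the smallest p, with 713, 573 and 684 in old mTOR spleens, against 316, 426 and 305 in young mTOR spleens. Every old value was above every young one, and the log2 difference was 0.92 (SE 0.23, limma adjusted p = 0.301, DESeq2 adjusted p = 0.0189). WT spleens had 455, 288 and 471 in old and 214, 294 and 173 in young animals (log2 0.83), so that 1 old WT animal fell among the young ones. The ageing table gave 0.31. Sesn3, a stress-induced inhibitor of the first complex, had 1409, 1846 and 1878 in old mTOR spleens, against 2429, 2222 and 1923 in young mTOR spleens. That difference of -0.36 stood beside 0.30 in WT spleens, with an unadjusted p of 0.00856 between the effects. Foxo1, a transcription factor restrained by AKT, differed by -0.29, and Lpin1, a lipid phosphatase under the first complex, by 0.47. Ribosomal protein genes, whose translation the pathway drives, were below 0 in 41 of 43 with a median of -0.18, beside -0.25 in WT. Without both pancreas-bearing libraries their mTOR median was -0.03.

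Of 18 genes of p53 targets and senescence 2 were higher at an unadjusted p under 0.05 (median 0.17, and -0.02 without old replicate 3). Cdkn2a, the cell-cycle inhibitor locus used as a marker of senescent cells, had 28.7, 18.5 and 11.8 in old mTOR spleens, against 7.10, 2.78 and 1.06 in young mTOR spleens. The groups did not overlap, and the log2 difference was 2.29 (SE 0.47, DESeq2 adjusted p = 0.0208), beside 0.66 in WT. Cdkn2a did not pass limma's test, where the smallest adjusted p of its list was 0.280. Its young values were near the floor, and 1.06 in young replicate 3 is 1 read. Class II antigen presentation genes had a median of -0.08 over 11 genes with 10 below 0, and interferon-stimulated genes a median of 0.13 over 25 genes with 19 above 0, which was -0.06 without old replicate 1. Nuclear-encoded respiratory chain (-0.03), lysosome and autophagy (0.10), cholesterol synthesis (-0.13) and circadian clock (0.02) lists lay near the median of all genes. For lysosome and autophagy the mean log2 value was 9.29, 9.17 and 9.14 in old and 9.09, 9.10 and 9.11 in young mTOR spleens. Of its 23 genes 5 were higher and 0 lower without overlap, beside 8.69% and 8.71% of all genes. The median ran from 0.02 to 0.14 with 1 library left out.

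Old and young WT spleens share no library with the mTOR animals, so the effects can be set against each other by a test. limma called 0 genes for the difference between the mTOR and WT effects, with a smallest adjusted p of 0.787 and 850 genes (5.48%) at an unadjusted p under 0.05. edgeR called 0 with 931 at that level, and DESeq2 called 0 with 942. Dapl1, a marker of naive T cells, had 111, 129 and 240 in old and 185, 264 and 230 in young mTOR spleens, a log2 difference of -0.57 beside -2.77 in WT. Those values overlapped in mTOR spleens, and the unadjusted p between the effects was 0.00149. Across genes the mTOR and WT effects had a Pearson correlation of 0.336, given as a description since genes are not independent and libraries were normalized together. Of the genes higher without overlap, 179 were shared, which is 13.3% of the mTOR list and 16.3% of the WT list, and of those lower 171 were shared, 12.7% and 15.8%.

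Averaged over mTOR and WT mice, a contrast added after the values were seen, limma called 4 genes (0.0258%). Hapln1 and the predicted gene Gm2619 rose, and Pacsin1 and Ampd1 fell. Ampd1, the muscle-type AMP deaminase, had 20.3, 12.7 and 21.6 in old mTOR spleens, against 35.5, 63.0 and 28.6 in young mTOR spleens, and averaged 4.47 ± 0.748 in old and 32.3 ± 12.4 in young WT spleens (SD, n = 3 each). Old and young groups did not overlap in either genotype. Camk2b, a subunit of calcium/calmodulin kinase II, had 226, 9671 and 513 in old mTOR spleens, against 11843, 9835 and 8566 in young mTOR spleens. The 23-month animals were low and the 21-month animal was within the young range, while WT spleens had 37279, 31910 and 18145 in old and 20056, 22356 and 17193 in young animals. The log2 difference of -3.26 in mTOR spleens (SE 0.94, limma adjusted p = 0.344) did not pass. Without the 21-month library it was -4.87 (limma adjusted p = 0.000107), the smallest adjusted p of the 42 genes called then. Camk2b was singled out after its values were seen.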

How the data were processed

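Per the labels, flash-frozen tissue was extracted with TRI-Reagent, cleaned with a Monarch kit and made into libraries with a TruSeq RNA kit. Base calling by bcl2fastq 2.20, adapters by cutadapt, alignment by HISAT2 2.1.0 and use of DESeq2 in R 3.5.1 and of SAMtools come from the tool names in the submitters' processing notes, which give GRCm38 as the build. Which program counted reads, and on which annotation, is not given in the sources used here. The deposited signal values are read counts that the authors divided by a size factor per library, as their steps show: of the values for mTOR and WT mice, 100% came out as whole reads at a tolerance of 0.01 read. 0 columns lacked a sample.

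The main test was limma 3.58.1 (R 4.3.3) on log2(value + 1) with the variance trended on the mean, with means for 4 groups of 3 libraries (8 residual degrees of freedom), 2-sided and Benjamini-Hochberg adjusted over all genes tested. The 21- and 23-month animals were 1 group. edgeR 4.0.16 and DESeq2 1.42.0 ran on the recovered reads. The ageing table was fitted alone with a mean per age, for 16243 genes with a value of 10 in at least 5 libraries, and 2489 (15.3%) were called. A pair of its columns gave no whole reads and stayed out of its edgeR fit.

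Called genes were to be named by size of change, at a group mean of at least 50, up to 12 a direction, with up to 4 members of a list by smallest p and the members that define it. Predicted genes and variable segments were left out. Since 1 gene was called, the 12 with the smallest p in each direction were added. Of the 49 gene lists, the list of late-life spleen genes came from earlier work on this series, and the others were written from general knowledge. Members, lists and tests were chosen with earlier results of these data known. Lists are described by counts and medians, with no test. Promoters come from RefSeq. Replicates were distinct libraries. Over 12 pairs within groups, with genes of few reads left out, the median squared difference was 3.39 to 11.7 times that which read sampling gives. The tests were tested on simulated data. Alternatives were another pseudocount, filter, scaling or tool, sample weights, the 2 groups alone, and each library left out. Figures used matplotlib 3.10.9 under Python 3.11.15. A few genes that the naming rule reaches are not reported here.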

Additional observations from a re-analysis of the deposited data

Results flagged for a closer look

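Single animals stood far from their group for 4 genes in the 20-month spleens of the ageing table (7 animals), out of 18 groups checked. Chance gives about 1 in 20 groups. Pacsin1 was at 218 in 1 animal, and the next was 132. Deptor was at 555, and the next was 389. Wipi1 was at 852, with the next at 471. C7 was at 386, with the next at 89.6. Groups of 3, as in the mTOR table, were not checked in this way.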

How the results depend on the processing

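The number of genes called between old and young mTOR spleens was 1. It was 0 with a pseudocount of 0.5, with no filter on low values, with TMM scaling, with the 2 groups fitted alone, with edgeR and without both pancreas-bearing young libraries (chosen after seeing the data). It was 51 with edgeR and no filter (19 higher, 32 lower), 120 with DESeq2 and 3 with DESeq2 without those 2 libraries. Leaving out 1 library gave 0 to 42 genes, 42 without the 21-month animal and 22 without young replicate 2. All 22 were lower, and 12 of them are in the list of pancreatic enzymes. The young group then held only the pancreas-bearing replicates 1 and 3. For WT spleens the count of 0 became 1 with a pseudocount of 5, 15 with edgeR and no filter and 99 with DESeq2, and 0 to 2 when 1 library was left out. The count for the difference between the effects was 0 to 1 when 1 library was left out, and 1 without the 21-month animal. The 4 genes averaged over genotype became 1 with edgeR, 374 with DESeq2 and 0 to 92 with 1 library left out. For the ageing comparison, counts ranged from 1859 to 2791 with 1 library left out. The cause of these moves was not tested. Over 75 named genes and all their alternatives, 1340 values kept direction and side of the threshold, 67 crossed to pass, 11 no longer passed and 4 turned. Those that turned were Mtor, at -0.0194 after centring and between -0.0556 and 0.139 with 1 library left out, and Pnlip, a pancreatic lipase, at 0.0521 with DESeq2 without both pancreas-bearing libraries. List medians moved by more than 1 SD in 37 cases and by less in 395. No scaling moved the median of all genes by over 0.1. No paired analysis was possible because the labels give no replicate numbers and nothing ties an old animal to a young one. With 3 libraries a group the median SE of a log2 difference was 0.207.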

Other observations

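Adipocyte genes had a median log2 difference of 1.26 over 8 genes in mTOR spleens, beside -0.10 in WT spleens. Of these genes 4 were higher and 1 lower without overlap in mTOR spleens, where 8.69% and 8.71% of all genes were. The summed value of the list overlapped, with 6702, 6740 and 7816 in old and 7621, 7337 and 7487 in young mTOR spleens. Adipoq, the hormone of fat cells, had 15.6, 37.1 and 16.7 in old mTOR spleens, against 8.87, 3.71 and 6.36 in young mTOR spleens. Albumin (Alb) was at 172 in young mTOR replicate 1, and at 4.79 or less in the other libraries. Among kappa variable segments, Igkv5-39 also made up 82.2% of values in old WT replicate 2, and Ighv5-15 made up 42.4% of heavy-chain variable values in young mTOR replicate 1. Pkhd1l1, a large membrane protein, had 249, 159 and 117 in old mTOR spleens, against 64.8, 21.3 and 95.3 in young mTOR spleens, with no overlap. Of 12 late-life spleen genes listed from earlier work on this series, 1 was higher and 3 were lower without overlap in mTOR spleens. Over all genes these shares were 8.69% and 8.71%. The median of that list was 0.56 in mTOR and -0.33 in WT spleens.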
